A study of Mus musculus with 2 samples.

Results

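The transcripts described here are those of the mitochondrial genome: all 37 features whose symbol starts with mt-, of 25906 features in the count tables. They comprise 13 protein-coding genes, 2 ribosomal RNAs and 22 transfer RNAs. The members were chosen by symbol alone, and none was chosen by its measured value. Cells were sorted as endothelial cells and astrocytes from the whole brain of adult mice, and single-cell libraries were made with the 10x 3-prime kit, version v3.1. Mice of genotype IL34LacZ/+ gave 1 library, and mice of genotype IL34LacZ/LacZ gave the other. The design text counts the former as wild type and the latter as knockout, and both carry a LacZ allele of Il34. How many mice were pooled, their age beyond adult and the markers of the sort were not given in the labels used here. Each genotype has 1 library and cells of a library do not replicate it. No difference here has a replicate check, no p-value was computed, and all 95% intervals cover counting error only.

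The mitochondrial genome is a small circle inside the organelle, present in many copies per cell, and encodes core subunits of the respiratory chain together with the RNAs needed to translate them. Both strands are transcribed as long precursors, which are cut apart at the transfer RNAs, and most of the released messenger RNAs receive a poly(A) tail. All other mitochondrial proteins are encoded in the nucleus. In single-cell data the share of mitochondrial transcripts per barcode is commonly used as a filter, since cells that have lost cytoplasmic RNA tend to show a high share. Brain endothelial cells, which form the blood-brain barrier, and astrocytes, the glia that contact vessels, were the sorted types.

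The tables list 3901 barcodes and 26679053 unique molecular identifiers (UMIs) for the library labelled IL34LacZ/+, and 5400 barcodes and 36696941 UMIs for that labelled IL34LacZ/LacZ. Paired values are given in this order throughout. The libraries shared 8 barcode sequences. Barcodes with at least 1000 UMIs and 500 genes were kept, which left 2126 and 1871 barcodes. A further limit of 15% mitochondrial UMIs, applied as a second setting, left 1668 and 1175. Values without the limit are given first, because the limit acts on the quantity measured. Cells were assigned to classes by marker genes and are called by class with the ending "-like". Tags of Il34, the targeted gene, stood at 375 CPM, UMIs scaled to a fixed total per class and library (288 to 478), and 521 CPM (438 to 614) in pericyte-like cells. The tag was thus not lower in the library labelled knockout, and each direction below rests on the labels. Where the insertion lies was not given in the labels, and a tag outside any deleted part checks nothing.

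In the reference (GRCm38, GENCODE M21) 28 of the 37 genes lie on the plus strand of chromosome M and 9 on the minus strand, namely mt-Nd6 and 8 transfer RNA genes. Neighbouring genes lie close together and in places overlap, so a tag near an end can lie in 2 genes. The stretches shown here are the ends of mt-Nd3, mt-Nd4 and mt-Nd6, complex I genes whose share of mitochondrial UMIs is followed across classes below, and the pairs that share bases with a neighbour. The end of mt-Nd6 (chrM:13552-13611, minus strand) and the end of mt-Nd5 (chrM:13506-13565, plus strand) share 14 bases on opposite strands, in capitals.
mt-Nd6 3-prime end: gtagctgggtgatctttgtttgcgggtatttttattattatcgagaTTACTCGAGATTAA
mt-Nd5 3-prime end: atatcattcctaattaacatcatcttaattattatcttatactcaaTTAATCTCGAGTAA
The reading frames of mt-Atp8 and mt-Atp6 (chrM:7918-7978, plus strand) share 43 bases, and those of mt-Nd4l and mt-Nd4 (chrM:10158-10182, plus strand) share 7 bases, in capitals.
mt-Atp8 end to mt-Atp6: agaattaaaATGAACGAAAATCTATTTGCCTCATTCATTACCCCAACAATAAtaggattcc
mt-Nd4l end to mt-Nd4: cctactacaATGCTAAaaattattc
The last 60 bases of mt-Nd3 (chrM:9747-9806, plus strand) and of mt-Nd4 (chrM:11485-11544, plus strand) are shown with the longest run of A within them in capitals, of 5 and 4 bases.
mt-Nd3 3-prime end: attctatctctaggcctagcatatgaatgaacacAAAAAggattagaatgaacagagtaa
mt-Nd4 3-prime end: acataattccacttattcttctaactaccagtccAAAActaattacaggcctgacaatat

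All 13 protein-coding members have a full or partial nuclear copy among the annotated transcripts of the reference. The match of mt-Nd1, for example, is 84.0% identical and covers 32.6% of the gene. A block on chromosome 1 holds copies with 100% identity of mt-Co2, mt-Atp6, mt-Co3, mt-Nd4l and the first 63.6% of mt-Nd4, and a copy of mt-Nd3 at 99.7% with 1 mismatch. The copy of mt-Nd6 on chromosome 4 is 93.6% identical. None of these copies is among the features. The features do hold Gm20594, which is 88.4% identical to 27.7% of mt-Rnr2, and Cep295, which resembles mt-Ta, mt-Tn and mt-Ty. The treatment of reads that match both places is not given in the labels or headers, so the levels of the genes with a near-identical copy are uncertain in that respect.

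Endothelial-like cells had the lowest mitochondrial share of the 7 classes compared, the smallest of which held 14 cells in 1 library. They held 2.30% (2.28 to 2.31) mitochondrial UMIs in 530 cells and 3.01% (2.98 to 3.03) in 307 cells. The choroid plexus epithelium makes cerebrospinal fluid, and the cells assigned to it held 10.2% in 433 cells and 13.6% in 466 cells. Astrocyte-like cells held 9.27% (9.24 to 9.30) in 361 cells and 14.2% (14.1 to 14.2) in 239 cells. Oligodendrocyte-like cells, the myelinating glia, held 7.25% (7.23 to 7.28) in 328 cells and 6.78% (6.76 to 6.81) in 299 cells. The smaller classes lay between: fibroblast-like cells at 6.74% and 8.28%, pericyte-like cells at 4.14% and 5.64%, and microglia-like cells at 7.01% and 4.89%.

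The order of classes by the median cell began with endothelial-like cells in both libraries, with and without the limit. Without the limit the median cell had 2.12% and 2.79% there, and pericyte-like cells followed at 4.66% and 6.13%. The interquartile range of endothelial-like cells, 1.32 to 3.30% and 1.77 to 4.81%, lay below that of choroid plexus epithelium-like cells, 7.83 to 13.4% and 10.7 to 17.9%. Microglia-like, fibroblast-like and oligodendrocyte-like medians were close, at 5.62 to 6.83% and 6.54 to 7.29%, and exchanged places between the libraries. Choroid plexus epithelium-like cells had the highest median in the library labelled IL34LacZ/+, at 9.98%. In the other library astrocyte-like cells stood above them, at 15.5% against 14.2%. With the 15% limit choroid plexus epithelium-like cells had the highest median in both.

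**Figure D1:**
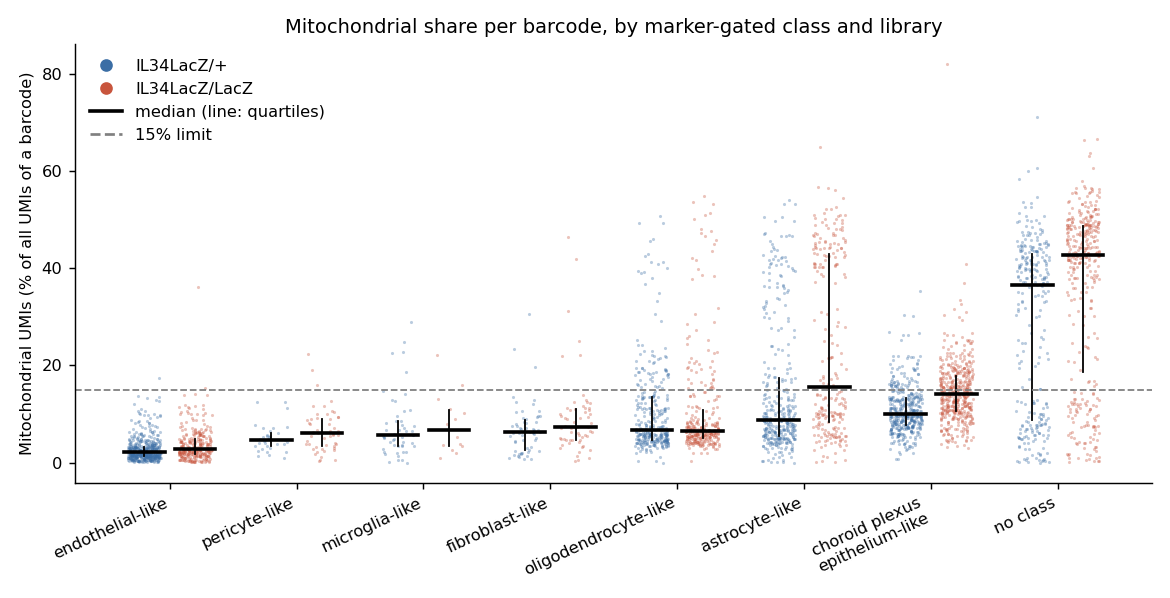
Mitochondrial UMIs as a percentage of all UMIs of a barcode (vertical axis), for each kept barcode of 7 marker-gated classes and of barcodes without a class, in the library labelled IL34LacZ/+ (blue) and the library labelled IL34LacZ/LacZ (red). Thick lines are medians, thin lines quartiles, and the dashed line is the 15% limit. Endothelial-like cells lie almost wholly under the line, and astrocyte-like cells form a separate upper group in both libraries.

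The library labelled IL34LacZ/LacZ had the higher share in 5 of the 7 classes. The difference was 0.71 percentage points (0.68 to 0.74) in endothelial-like cells, 4.89 points (4.83 to 4.96) in astrocyte-like cells and 3.44 points (3.40 to 3.48) in choroid plexus epithelium-like cells. In fibroblast-like cells it was 1.54 points (1.46 to 1.62), and in pericyte-like cells the share was 1.36-fold higher. In oligodendrocyte-like cells it was −0.47 points (−0.50 to −0.44), and in microglia-like cells −2.12 points (−2.35 to −1.89). The 14 microglia-like cells labelled IL34LacZ/LacZ included a cell with 13977 UMIs that held 39.8% of their mitochondrial UMIs. Their median cell was nevertheless the higher, at 6.66% against 5.62%, so the summed share and the median cell differed in direction.

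The median endothelial-like cell held 96.5 and 139 mitochondrial UMIs and 4266 and 4638 UMIs of nuclear genes, so the number of mitochondrial UMIs was higher while that of nuclear UMIs was not lower. In astrocyte-like cells both parts differed, with medians of 625 and 822 mitochondrial and of 6365 and 4756 nuclear UMIs. In oligodendrocyte-like cells both numbers were higher in the second library, with 808 and 998 mitochondrial and 10213 and 13585 nuclear UMIs. The median oligodendrocyte-like cell thus held more mitochondrial UMIs in the library where its share was lower. UMIs per cell follow sequencing depth and capture as well as RNA content, and the part of depth was not tested here.

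The limit of 15% acted unequally on the classes. It removed 1 of 530 (0.189%) and 2 of 307 (0.651%) endothelial-like cells. It removed 105 of 361 (29.1%, 24.5 to 34.1) and 120 of 239 (50.2%, 43.7 to 56.7) astrocyte-like cells, and 74 of 433 (17.1%) and 204 of 466 (43.8%) choroid plexus epithelium-like cells. Oligodendrocyte-like cells were removed at like rates, 70 of 328 (21.3%) and 57 of 299 (19.1%). With the limit the endothelial-like difference was 0.65 points (0.62 to 0.69). The astrocyte-like difference fell to 1.03 points (0.97 to 1.09) and the choroid plexus epithelium-like difference to 1.26 points (1.22 to 1.30). The oligodendrocyte-like difference was −0.10 points (−0.14 to −0.07), while the median cell was 0.19 points higher in the second library. Over all kept barcodes the difference was 2.71 points without and 0.79 points with the limit, since 458 (21.5%) and 696 (37.2%) barcodes were removed.

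Barcodes rich in mitochondrial UMIs formed a second group. Shares from 20 to 30% were found in 76 and 109 kept barcodes and shares from 40 to 50% in 138 and 240. Over 30% mitochondrial UMIs were found in 261 and 400 kept barcodes, whose median was 952 and 961 nuclear UMIs and 718 and 859 mitochondrial UMIs. Barcodes with 5 to 15% had a median of 9004 and 10848 nuclear UMIs but a similar number of mitochondrial UMIs, 847 and 1025. The groups thus differed far more in nuclear than in mitochondrial UMIs. Of the group over 30%, 62.1% and 66.0% had no class, and 63 and 90 barcodes were astrocyte-like and 19 and 21 oligodendrocyte-like. In several classes cells with fewer nuclear UMIs had a higher share. Spearman's rho over cells was −0.64 and −0.78 in astrocyte-like, −0.73 and −0.74 in oligodendrocyte-like, −0.80 and −0.62 in pericyte-like and −0.47 and −0.45 in endothelial-like cells. It was weaker in choroid plexus epithelium-like cells, at −0.28 and −0.35, and near 0 in fibroblast-like cells, at 0.06 and −0.10. These coefficients describe cells of 1 library each, and the nuclear UMIs are part of the denominator of the share.

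**Figure D2:**
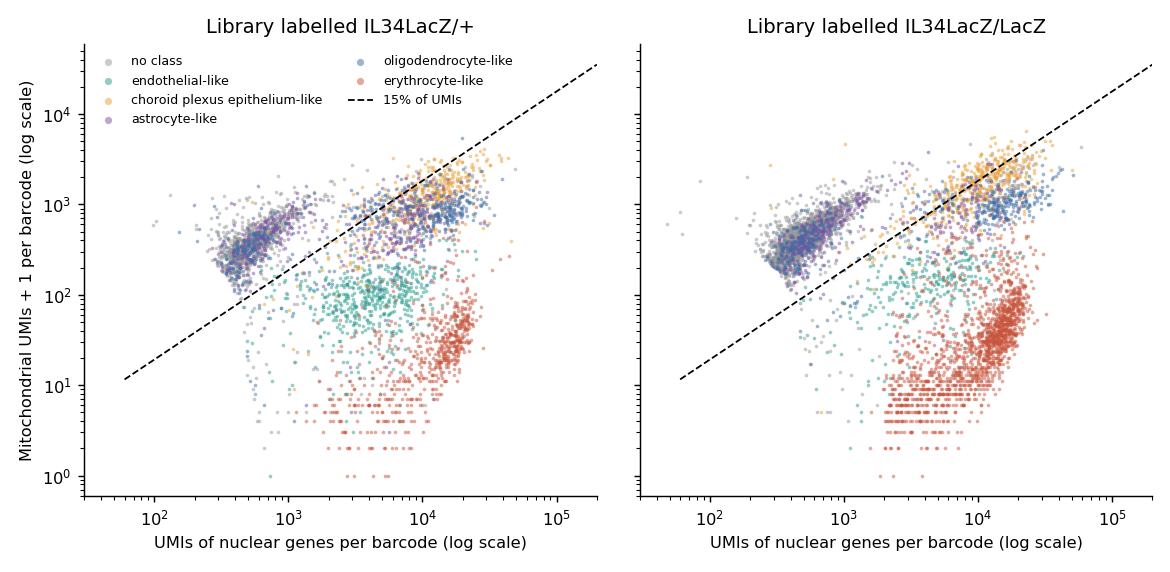
UMIs of nuclear genes (horizontal axis, log scale) against mitochondrial UMIs plus 1 (vertical axis, log scale) for all barcodes of 5 marker-gated classes and those without a class, 1 panel per library, with no filter on barcodes. The dashed line marks 15% mitochondrial UMIs. A dense group above the line holds barcodes with few nuclear UMIs and mixes astrocyte-like, oligodendrocyte-like and unclassified barcodes, while endothelial-like cells lie below it near 100 mitochondrial UMIs and erythrocyte-like barcodes lie lowest.

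Barcodes with at least 90% haemoglobin UMIs stood at the other end. Mature red blood cells of mammals lack mitochondria. With no filter 623 and 1552 such barcodes were found, with a median of 23.0 and 27.0 mitochondrial UMIs, or 0.175% and 0.251% of their UMIs. With haemoglobin left out of the total the median was 5.26% and 6.67%.

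The ribosomal RNAs were the members with most UMIs in cells gated as endothelial or as astrocytes. mt-Rnr1, the small subunit RNA, made up 17.4% and 18.6% of the mitochondrial UMIs of endothelial-like cells, which is 4004 CPM (3930 to 4078) and 5597 CPM (5486 to 5711). mt-Rnr2, the large subunit RNA, made up 24.5% and 24.2%, at 5624 CPM (5537 to 5713) and 7285 CPM (7157 to 7414). The log2 ratio of CPM, IL34LacZ/LacZ over IL34LacZ/+, was 0.48 (0.44 to 0.52) for mt-Rnr1 and 0.37 (0.34 to 0.41) for mt-Rnr2. Per kilobase of gene the order of levels of the ribosomal RNAs and protein-coding genes in endothelial-like cells of the library labelled IL34LacZ/+ ran from mt-Rnr1 (4192 CPM per kilobase) over mt-Atp6 (3636) and mt-Rnr2 (3555) to mt-Nd6 (86.9), and a 3-prime library counts ends rather than lengths.

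In choroid plexus epithelium-like and oligodendrocyte-like cells mt-Rnr2 led, at 16.8% and 18.6% and at 16.4% and 15.4% of mitochondrial UMIs. There mt-Rnr1, at 8.72% and 11.2% and at 11.9% and 12.7%, lay below mt-Co1 in both libraries, which stood at 11.9% and 11.3% in choroid plexus epithelium-like cells.

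The split between ribosomal RNA and messenger RNA differed between classes. Both ribosomal RNAs together were 42.0% and 42.9% of mitochondrial UMIs in endothelial-like cells and 39.1% and 44.7% in astrocyte-like cells. They were 25.6% and 29.7% in choroid plexus epithelium-like and 28.3% and 28.1% in oligodendrocyte-like cells. Within astrocyte-like cells the ribosomal part was larger where the mitochondrial share of the cell was higher, from 34.6% and 38.7% in cells under 5% to 46.7% and 49.3% in cells over 30%. Oligodendrocyte-like cells ran from 24.6% and 25.6% to 44.4% and 48.1% over the same bands. Over 30%, astrocyte-like and oligodendrocyte-like barcodes thus differed little in this respect.

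**Figure D3:**
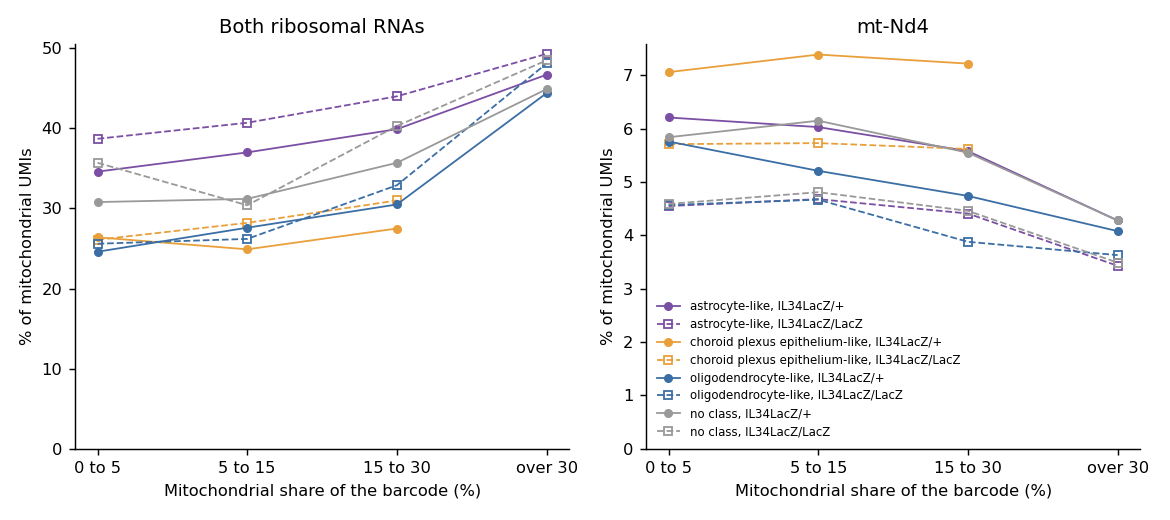
Share of both ribosomal RNAs (left) and of mt-Nd4 (right) in mitochondrial UMIs (vertical axes, %), by band of the mitochondrial share of the barcode (horizontal axis, %), for 3 classes and barcodes without a class. Solid lines with filled points are the library labelled IL34LacZ/+, dashed lines with open squares the library labelled IL34LacZ/LacZ. The ribosomal part is highest over 30%, and the mt-Nd4 part is lower in the library labelled IL34LacZ/LacZ in each band shown.

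In endothelial-like cells the 13 protein-coding genes had a median log2 ratio of 0.30 against −0.01 over 6360 measured genes. Of the 13, 11 had a ratio above 0, and 1 was past 1.5-fold higher and 1 past 1.5-fold lower. Over all measured genes 2.44% were past 1.5-fold higher and 6.26% lower. Most members thus had a ratio above 0, and 11 of the 13 lay within 1.5-fold. With the 15% limit the median was 0.28.

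Complex I, the entry point of electrons from NADH, holds 7 of the 13 and both extremes. mt-Nd3 had the highest ratio in endothelial-like cells, with 308 CPM (288 to 330) against 487 CPM (455 to 522), or 0.66 on the log2 scale (0.52 to 0.80). mt-Nd2 stood at 933 CPM (897 to 969) and 1272 CPM (1219 to 1327), a log2 ratio of 0.45 (0.36 to 0.53). mt-Nd6, the only protein-coding gene of the minus strand, had the lowest ratio, with 126 UMIs (45.1 CPM, 37.6 to 53.7) against 42 UMIs (24.6 CPM, 17.7 to 33.3), or −0.87 (−1.41 to −0.36). A UMI of mt-Nd6 was found in 84 of 530 and 36 of 307 cells, so this value rests on few molecules. mt-Nd4, the third lowest, was nearly level, at 1004 and 1022 CPM (0.03, −0.06 to 0.11). mt-Nd5 was at 0.07, mt-Nd1 at 0.25 and mt-Nd4l at 0.30.

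Complex IV, cytochrome c oxidase, is represented by mt-Co1, mt-Co2 and mt-Co3, and mt-Co3 had the second-highest ratio. It stood at 2118 CPM (2065 to 2173) and 3090 CPM (3007 to 3175), a log2 ratio of 0.54 (0.49 to 0.60). mt-Co1 was at 1831 and 2263 CPM (0.31, 0.24 to 0.37) and mt-Co2 at 1849 and 2427 CPM (0.39, 0.33 to 0.45). Of the ATP synthase subunits, mt-Atp6 was at 2476 and 3303 CPM (0.42, 0.36 to 0.47). mt-Atp8, whose end overlaps mt-Atp6 in the stretch shown above, was among the 3 lowest ratios, at 67.7 and 67.4 CPM (−0.00, −0.35 to 0.34). mt-Cytb, the only subunit of complex III in this genome, was at 1436 and 1720 CPM (0.26, 0.19 to 0.33).

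**Figure D4:**
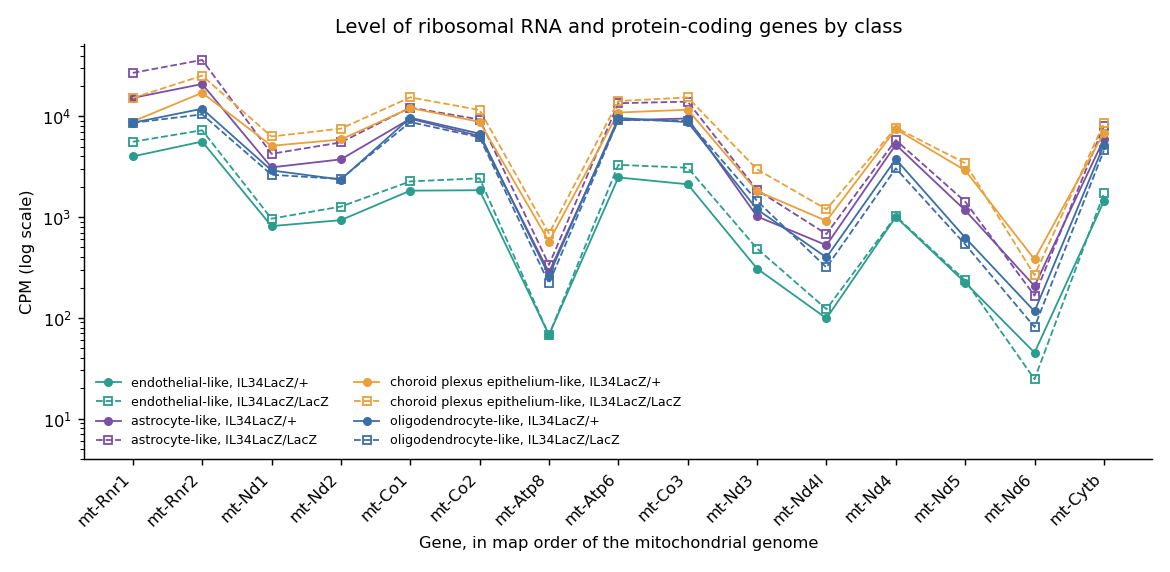
Level of the 2 ribosomal RNAs and 13 protein-coding genes in CPM (vertical axis, log scale), in map order (horizontal axis), in 4 classes. Filled points and solid lines are the library labelled IL34LacZ/+, open squares and dashed lines the library labelled IL34LacZ/LacZ. The profile over genes is alike in the 4 classes, with mt-Nd6 and mt-Atp8 lowest, and endothelial-like cells lie below the other 3 at each gene.

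In astrocyte-like cells the median log2 ratio of the 13 genes was 0.43, against −0.11 over 6507 measured genes, and 1 of the 13 was past 1.5-fold higher, where 1.78% of all measured genes were higher and 5.49% lower. That gene was mt-Nd3, at 1015 and 1857 CPM (0.87, 0.80 to 0.95). mt-Rnr1, at 15264 and 27029 CPM, and mt-Rnr2, at 20945 and 36338 CPM, had log2 ratios of 0.82 (0.80 to 0.84) and 0.79 (0.78 to 0.81). With the limit these were 0.40 and 0.30, and the median of the 13 genes was 0.06. With the limit mt-Nd3 was at 0.56, no longer past 1.5-fold, and mt-Nd6 was past 1.5-fold lower at −0.62. Over all measured genes 1.62% were then higher and 5.53% lower.

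In choroid plexus epithelium-like cells the median of the 13 was 0.35 against −0.01 over all measured genes. mt-Nd3 was past 1.5-fold higher there, at 1809 and 2982 CPM (0.72, 0.69 to 0.76), where 1.57% of all measured genes were higher and 0.410% lower. With the limit the median was 0.13, mt-Nd3 fell short of 1.5-fold at 0.50 and mt-Nd6 was past it, lower, at −0.71, where 4.12% of all measured genes were higher and 0.642% lower. In oligodendrocyte-like cells the median was −0.14 against −0.04, with 10 of 13 below 0 and none past 1.5-fold, where 0.846% of all measured genes were higher and 1.37% lower. mt-Nd3 was above 0 there too, at 1193 and 1448 CPM (0.28, 0.23 to 0.33).

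The smaller classes gave wider intervals. In fibroblast-like cells, the cells of the meninges and vessel walls, the median of the 13 was 0.23. There mt-Nd3 alone was past 1.5-fold, at 1074 and 1708 CPM (0.67, 0.54 to 0.80), where 2.80% of all measured genes were higher and 5.24% lower. The 10 fibroblast markers summed to 8548 and 7967 CPM in fibroblast-like cells, and the 12 astrocyte markers to 2657 and 2095 CPM. In pericyte-like cells, which wrap capillaries, 10 of the 13 were measured with a median of 0.38, and 0 were past 1.5-fold, where 6.24% were higher and 5.02% lower. In microglia-like cells 10 were measured with a median of −0.36, against −0.84 over only 203 measured genes. There mt-Nd3, of whose UMIs 1 cell of the second library supplied 55.4%, was past 1.5-fold higher and 2 of the 10 were past 1.5-fold lower, where 12.3% were higher and 67.5% lower. The 12 microglia markers summed to 43848 and 19405 CPM in these cells, the 10 neuron markers to 341 and 2391 CPM and the 10 fibroblast markers to 19.5 and 2146 CPM. The part of these other transcripts in the values was not tested.

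Transfer RNAs made up 0.601% and 0.516% of mitochondrial UMIs over all kept barcodes. In endothelial-like cells none of the 22 was measured by the minimum of 100 UMIs and 20 CPM, and mt-Ts2, a serine transfer RNA, led with 41 and 41 UMIs. In astrocyte-like cells 12 of 22 passed the minimum and 10 of those were past 1.5-fold higher, against 1.78% of all measured genes, among them mt-Ts2 (88.9 and 156 CPM; 0.81, 0.54 to 1.07) and mt-Ta (86.3 and 155 CPM; 0.84, 0.58 to 1.11). The 12 had a median of 0.81, near that of the ribosomal RNAs. The whole mitochondrial share of these cells was 1.53-fold higher, so a member that only keeps its part of that share is called. As a part of mitochondrial UMIs, the transfer RNAs had log2 ratios of 0.13 (−0.02 to 0.27) for the minus strand and 0.12 (−0.01 to 0.24) for the plus strand. With the 15% limit 3 were measured, 0 were past 1.5-fold and the median was −0.15, so these calls rest on cells over the limit. In choroid plexus epithelium-like cells 9 passed, with a median of −0.26. Of these mt-Tc, the cysteine transfer RNA, was past 1.5-fold lower, at −0.82 (−1.10 to −0.55), and mt-Tv, the valine transfer RNA between both ribosomal RNA genes, past 1.5-fold higher, at 0.62 (0.27 to 0.97). With the limit the median was −0.42, 0 were higher and 3 lower, namely mt-Tc, mt-Ta and mt-Te. Over all measured genes of this class 1.57% were higher and 0.410% lower without the limit, and 4.12% and 0.642% with it.

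The share of a gene within mitochondrial UMIs sets the total of the members aside. It is followed here for mt-Nd6, mt-Nd3 and mt-Nd4, with the other genes after them. In endothelial-like cells above, mt-Nd3 had the highest ratio of the protein-coding genes, mt-Nd6 the lowest, and mt-Nd4 was among the lowest. The counts over classes below include that class, so for mt-Nd6, mt-Nd3 and mt-Nd4 they are no independent check. The share of mt-Nd6 was lower in the library labelled IL34LacZ/LacZ for 7 of 7 classes, with the interval below 0 in 4. Its share was 0.374% and 0.195% in choroid plexus epithelium-like cells (2069 and 1634 UMIs), a log2 ratio of −0.94 (−1.04 to −0.85). In astrocyte-like cells it was 0.223% and 0.117% (−0.93, −1.15 to −0.71). In endothelial-like cells it was 0.197% and 0.0819% (−1.26, −1.80 to −0.75), and in oligodendrocyte-like cells 0.161% and 0.120% (−0.42, −0.63 to −0.22). Pericyte-like and microglia-like cells held 13 and 17 and 10 and 2 UMIs of mt-Nd6, too few to place the ratio.

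mt-Nd3 had a higher share in 7 of 7 classes, with the interval above 0 in 6. Microglia-like cells are among the 6, at 1.15 (0.64 to 1.67), and 1 cell of the second library supplied 55.4% of their mt-Nd3 UMIs there. The log2 share ratio of mt-Nd3 was 0.27 (0.13 to 0.41) in endothelial-like and 0.26 (0.19 to 0.34) in astrocyte-like cells. It was 0.30 (0.27 to 0.34) in choroid plexus epithelium-like and 0.38 (0.32 to 0.43) in oligodendrocyte-like cells. mt-Nd4 had a lower share in 6 of 7 classes, with the interval below 0 in each of the 6. Its ratio was −0.36 (−0.45 to −0.28), −0.46 (−0.50 to −0.42), −0.37 (−0.39 to −0.35) and −0.21 (−0.24 to −0.17) in the same 4 classes. The exception was microglia-like cells, at 0.06 (−0.22 to 0.32), of whose mt-Nd4 UMIs 1 cell of the second library supplied 44.0%. In the same 7 classes mt-Co1, mt-Atp8, mt-Nd4l and mt-Nd5 were lower in each, with ratios from −0.24 to −0.05 for mt-Co1 and from −0.46 to −0.12 for mt-Nd5. mt-Cytb was lower in 6 of 7, with the interval below 0 in 6, as for mt-Nd4.

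**Figure D5:**
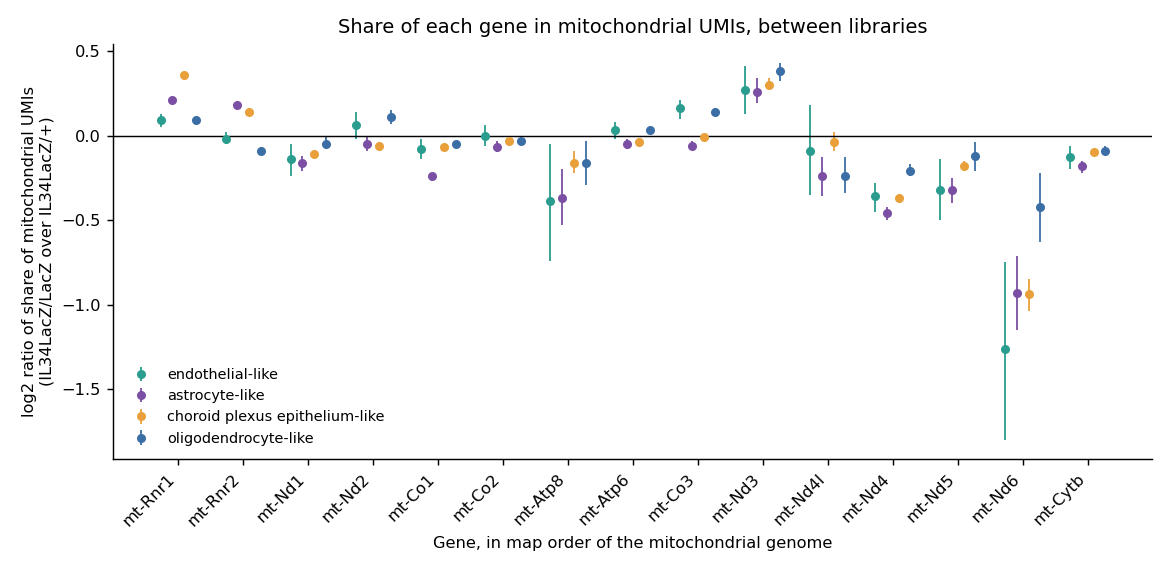
Log2 ratio of each gene's share of mitochondrial UMIs, IL34LacZ/LacZ over IL34LacZ/+ (vertical axis), for the 2 ribosomal RNAs and 13 protein-coding genes in map order (horizontal axis), in 4 classes (colours). Bars are exact 95% intervals for counting error. mt-Nd6 is lowest in each class, from −1.26 to −0.42, and mt-Nd3 is above 0 in each, from 0.26 to 0.38.

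These directions were also read within bands of the mitochondrial share, so that cells of like share were set side by side. Over 15 pairs of class and band, the barcodes without a class included, the share of mt-Nd4 was lower in the second library in 15, that of mt-Nd6 in 14, and that of mt-Nd3 higher in 15. mt-Rnr1 was higher in 15 of 15 and mt-Rnr2 in 10. The shares of mt-Atp8 and mt-Cytb were likewise lower in 15, and those of mt-Co1 and mt-Nd4l in 14. In astrocyte-like cells of 5 to 15%, mt-Nd4 made up 6.03% and 4.68% and mt-Nd3 1.16% and 1.45%. These pairs come from the same 2 libraries and are no independent repeats. The composition differences were thus present at matched shares and below the limit as well as above it.

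Other minus-strand genes were close to mt-Nd6 in some classes and not in others. In choroid plexus epithelium-like cells its 8 transfer RNAs had a log2 share ratio of −0.92 (−1.07 to −0.78), close to mt-Nd6, while the 14 of the plus strand were at −0.29 (−0.39 to −0.20). In oligodendrocyte-like cells they were at −0.48 (−0.66 to −0.30), near mt-Nd6 at −0.42, and those of the plus strand at −0.28 (−0.45 to −0.12). In endothelial-like cells the minus-strand transfer RNAs were at 0.23 (−0.12 to 0.58) and those of the plus strand at 0.23 (−0.08 to 0.54). In astrocyte-like cells the minus-strand ones were at 0.13 (−0.02 to 0.27) without the limit and at −0.24 (−0.52 to 0.03) with it. Those of the plus strand were there at 0.12 (−0.01 to 0.24) without the limit and lower still, at −0.48 (−0.72 to −0.23), with it. Transfer RNAs lack a long poly(A) tail, and what their tags stand for in a poly(A)-primed library was not tested. How mt-Nd6 and the ribosomal RNAs were primed was not tested either.

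Nuclear genes of the same organelle did not follow the mitochondrially encoded ones in endothelial-like cells. Of 21 nuclear-encoded core subunits of the respiratory chain 18 were measured, with a median log2 ratio of −0.43. None of the 18 was past 1.5-fold higher and 6 were past 1.5-fold lower, against 6.26% of all measured genes. Examples are the complex IV subunits Cox6c, at 115 and 58.0 CPM (−0.98, −1.32 to −0.65), and Cox8a, at 124 and 69.2 CPM (−0.84, −1.15 to −0.53), and the complex I subunit Ndufs3, at 42.6 and 28.1 CPM (−0.60, −1.11 to −0.10). In choroid plexus epithelium-like cells Cox6c was far more abundant, at 2871 and 2797 CPM, and the median of the list was −0.06. The 12 choroid plexus markers summed to 134 and 121 CPM in endothelial-like cells, with Slc4a5 at 0 in the second library. Ribosomal protein transcripts made up 1.34% and 0.863% of their nuclear UMIs. The part of either in these values was not tested. In astrocyte-like cells the list's median was −0.00 with 0 of 21 past 1.5-fold.

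A list of 30 genes for the expression of the mitochondrial genome held, for example, its RNA polymerase and RNA-processing factors. Of these, 7 were measured in endothelial-like cells, with a median of −0.05 and 0 past 1.5-fold. In astrocyte-like cells 11 were measured, with a median of −0.28 and 0 past 1.5-fold. Of 7 regulators of mitochondrial biogenesis 3 were measured in endothelial-like cells, with a median of −0.02, and 4 in astrocyte-like cells, with a median of −0.20. Most members were below the minimum in both classes, except for the biogenesis regulators in astrocyte-like cells.

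Haemoglobin transcripts, which come from red blood cells, moved between the libraries as well. In endothelial-like cells 3 of 4 had a ratio past 1.5-fold higher, with Hbb-bs at 1455 and 2693 CPM, and in astrocyte-like cells 4 of 4 were past 1.5-fold lower, with Hbb-bs at 3414 and 2024 CPM. In choroid plexus epithelium-like cells 3 of 4 and in oligodendrocyte-like cells 4 of 4 were past 1.5-fold higher, with list medians of 0.74 and 1.33. The shift was larger in fibroblast-like cells, with a median of 3.83, 4 of 4 higher and Hbb-bs at 702 and 9390 CPM. In pericyte-like cells 0 of 4 were past 1.5-fold. In microglia-like cells 3 of 3 measured were lower, where 67.5% of all 203 measured genes were lower. Their haemoglobin median, −0.93, was near the −0.84 over all measured genes. Of all measured genes, 2.44% were past 1.5-fold higher in endothelial-like and 5.49% lower in astrocyte-like cells. The higher part was 1.57% in choroid plexus epithelium-like, 0.846% in oligodendrocyte-like and 2.80% in fibroblast-like cells. With haemoglobin UMIs left out of the totals the mitochondrial difference was 0.72 points in endothelial-like cells and 4.88 points in astrocyte-like cells. It was 3.50 points in choroid plexus epithelium-like, −0.42 in oligodendrocyte-like, 1.67 in fibroblast-like and −2.14 in microglia-like cells.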

How the data were processed

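The authors deposited UMI counts per gene and barcode. Per the file headers, Cell Ranger 7.1.0 made them, and per the submitters' processing notes the build was mm10, that is GRCm38.p6. Which annotation was used, how reads matching several places were treated and whether free RNA was removed is not given in the labels or headers. The deposited counts were used as they are. Members were all symbols starting with mt-, and 37 of 37 matched GENCODE M21, which gave positions and sequences. Kept barcodes had at least 1000 UMIs and 500 genes. A barcode joined a class with at least 3 distinct markers of it and 2 more than of any other of 12 lists. Erythrocyte-like barcodes had at least 50% haemoglobin UMIs. The margin and the haemoglobin rule were set after a first look at the data. No doublet caller was run. Barcodes short of 3 markers or of the margin have no class unless erythrocyte-like. Barcodes with mixed markers can still join a class when they pass the margin. Fibroblast-like cells, for example, had a median of 6.0 markers of their own and 3.0 astrocyte markers in each library. Counts were summed per class and library. Measured genes had 100 or more UMIs per class and 20 CPM in a library, and were called past 1.5-fold.

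Shares carry exact Clopper-Pearson, CPM exact Poisson, ratios exact conditional binomial and differences Newcombe intervals at 95%, all for counting error only. The total was 26679053 and 36696941 UMIs. Interval coverage was tested on counts simulated from the counting model that the intervals assume. That check cannot show how they cover the spread between cells or mice. Among the members, the 3 highest and 3 lowest ratios of the 13 protein-coding genes in endothelial-like cells and both ribosomal RNAs are given in full, and from other lists up to 5 genes past 1.5-fold. The members and lists were chosen with earlier results of these data known. Alternatives were the mitochondrial limit, no filter, at least 2000 UMIs, thinning each cell to 1000 UMIs, equal weight per cell, a gate with 5 markers, haemoglobin left out and CPM over nuclear UMIs. Malat1 and Neat1 were not analysed here. Python 3.11.15, numpy 2.4.6, scipy 1.17.1 and pandas 2.3.3 were used.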

Additional observations from a re-analysis of the deposited data

Results flagged for a closer look

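The mitochondrial share of oligodendrocyte-like cells was lower in the library labelled IL34LacZ/LacZ, by −0.47 percentage points, and that of microglia-like cells by −2.12 points, while it was higher in the 5 other classes. With each cell weighted equally the oligodendrocyte-like difference was −0.01 points and the microglia-like difference 0.55 points. The difference between classes was not tested. Barcodes under 1000 UMIs or 500 genes, which enter the class comparisons only in the setting with no filter, held 4.73% mitochondrial UMIs in the library labelled IL34LacZ/+ and 4.64% in the library labelled IL34LacZ/LacZ. Of these 1775 and 3529 barcodes, 622 and 1550 had over 90% haemoglobin UMIs. The other 1153 and 1979 had a median mitochondrial share of 39.2% and 44.8% at a median of 814 and 868 UMIs.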

How the results depend on the processing

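The difference over all kept barcodes (2.71 points) was 0.79 with the 15% limit, 1.69 with the limit on protein-coding genes alone, 0.62 with no filter, 2.53 at 2000 UMIs or more, 5.54 after thinning, 5.49 with equal weight per cell and 2.88 without haemoglobin. In the first 6 of these settings, the endothelial-like difference (0.71) was 0.65, 0.67, 0.66, 0.74, 0.98 and 0.97, and 0.66 with a gate of 5 markers. The astrocyte-like difference (4.89) was 1.03, 1.75, 6.70, 4.15, 9.14 and 9.13, and 4.54 with that gate. The oligodendrocyte-like difference (−0.47) was −0.10 with the 15% limit, −0.12 with no filter and −0.01 with equal weight, and turned to 0.06 after thinning. It was −0.39 with the limit on protein-coding genes, −0.50 at 2000 UMIs or more and −0.59 with the gate of 5 markers. The microglia-like difference turned to 0.64 after thinning and 0.55 with equal weight, and without the cell of most mitochondrial UMIs in each library, a setting chosen after seeing the data, it was −2.84. The cause of these changes was not tested, beyond the cells that each limit removes. The median of the 13 genes in astrocyte-like cells (0.43) was 0.06 with the limit, 0.19 with the limit on protein-coding genes, 0.48 with no filter, 0.49 after thinning, 0.51 with equal weight and 0.51 over nuclear UMIs. In endothelial-like cells it stayed between 0.26 and 0.41 over 9 alternatives. The shares of mt-Nd3, mt-Nd4 and mt-Nd6 kept their direction in the 4 large classes over 7 alternatives, with mt-Nd6 from −1.28 to −0.41 and mt-Nd4 in endothelial-like cells from −0.40 to −0.18. No paired analysis was possible because there was 1 library per genotype. Genes of few UMIs, such as mt-Nd6 in small classes and most transfer RNAs, are limited by depth.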
